A study of Mus musculus with 12 samples.

Results

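A set of 9 early activation genes, of the 23361 gene symbols in the deposited table, was followed in regulatory T cells (Tregs) of mice: Nr4a1, Egr1, Egr2, Ier2, Ier3, Zfp36, Zfp36l1, Btg2 and Cd69. They were chosen by name, as genes that T cell receptor (TCR) signalling induces early, outside the AP-1 and Dusp families. RNA had been sequenced in 12 libraries, 3 from each of 4 groups: Lag3-deficient Tregs from pancreatic islets, Wt Tregs from islets, Lag3-deficient Tregs from non-draining lymph nodes (NDL) and Wt Tregs from NDL. All came from an autoimmune diabetes model. Lag3 encodes a receptor on the T cell surface that binds MHC class II and dampens signalling. The sources used here do not give the strain, the age, the sorting markers, the way Lag3 was removed or any pooling of animals. The labels do not say that replicates came from separate animals, so p-values measure the spread between these libraries, which may be technical.

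Immediate early genes are transcribed within minutes of a stimulus, from promoters that already carry the factors they need, and their transcripts are usually short lived. In T cells the signal runs from the TCR through calcium and the ERK kinases to serum response factor, CREB and related factors. Several of the products act back on the response: EGR proteins induce NAB co-repressors, ZFP36 proteins bring cytokine transcripts to deadenylation, and CD69 holds cells in tissue by taking the egress receptor S1PR1 off the surface. Nr4a1, which encodes the orphan nuclear receptor NUR77, is widely used as a reporter of recent TCR signalling, and NR4A factors take part in Treg development.

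Promoter sequence was available from RefSeq (GRCm38.p6) for 6 of the 9 genes: Nr4a1, Egr2, Ier3, Zfp36, Zfp36l1 and Btg2. The 250 bases before an annotated start are shown for Nr4a1, the member whose level differed most between tissues, and for Egr2 and Btg2, which did not pass the test. RefSeq gives Egr2 5 such windows. The one at the 5′ end of the gene, chr10:67535249-67535498, holds no CArG box, and the other 4, inside the gene, each hold a match. Of these 4, the windows that start at 67537619, 67537620 and 67537680 overlap and hold the same box. The first of the 4 is shown and was chosen for its match. Capitals mark a motif found on either strand: TGCGTCA in Nr4a1, the CArG box bound by serum response factor in Egr2, and the CREB site TGACGTCA in Btg2. The windows are chr15:101266596-101266845 on the plus strand for Nr4a1, chr10:67537316-67537565 on the plus strand for Egr2 and chr1:134079156-134079405 on the minus strand for Btg2. Each is written 5′ to 3′ in the direction of transcription.
Nr4a1: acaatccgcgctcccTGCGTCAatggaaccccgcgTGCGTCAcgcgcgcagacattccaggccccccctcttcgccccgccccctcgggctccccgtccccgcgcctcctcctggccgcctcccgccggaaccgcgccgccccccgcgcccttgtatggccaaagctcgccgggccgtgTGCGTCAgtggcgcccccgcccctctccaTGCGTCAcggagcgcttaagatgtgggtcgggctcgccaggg
Egr2: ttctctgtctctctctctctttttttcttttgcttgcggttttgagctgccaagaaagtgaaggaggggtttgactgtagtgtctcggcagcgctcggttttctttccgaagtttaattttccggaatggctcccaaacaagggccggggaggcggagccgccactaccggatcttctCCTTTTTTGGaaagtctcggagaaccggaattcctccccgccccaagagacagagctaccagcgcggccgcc
Btg2: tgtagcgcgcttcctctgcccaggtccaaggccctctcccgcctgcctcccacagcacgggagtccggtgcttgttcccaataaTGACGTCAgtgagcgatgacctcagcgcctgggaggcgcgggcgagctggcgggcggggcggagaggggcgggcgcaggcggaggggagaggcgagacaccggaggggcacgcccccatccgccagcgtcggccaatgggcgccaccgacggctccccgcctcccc
TGCGTCA, a variant of the CREB and ATF site, was searched after the Nr4a1 sequence had been read. It occurred 4 times there, with first bases 235, 215, 71 and 42 before the start. At least 1 copy stood in 1.75% of the 32851 windows of that length, and 1 window, that of Nr4a1, held 4 or more. The Egr2 CArG box began 72 bases before the start, and 1.47% of windows held such a box. The Btg2 site TGACGTCA began 166 bases before the start, against 1.55% of windows with a match. Of the other motifs searched, the EGR site GCGNGGGCG (in 4.7% of windows) matched in Nr4a1, Zfp36 and Btg2, the AP-1 site TGANTCA (6.75%) in Zfp36l1, and a CArG box also in Zfp36. A match describes letters in the window and does not show that a factor was bound.

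The deposited values are rescaled counts that sum to 15232498 to 15370098 in every library, so the sequencing depth behind a value is unknown, and levels are given in CPM, relative to the scaled library total. Headers number the 3 columns of each group 1, 2 and again 1, written here as libraries 1a, 2 and 1b. Ribosomal RNA (Rn45s) made up 1.26 to 1.68% of each 1b library and 0.149 to 0.571% of each of the others. Of the whole numbers from 1 to 60, 32 occurred at all in Lag3-deficient islet library 2, 46 in Wt NDL library 2 and 55 in Lag3-deficient NDL library 1b, against 60 in each of the other 9, which marks these 3 as scaled up. The scaling factor of Lag3-deficient islet library 2 was 1.185 by the trimmed mean of log ratios (TMM) and 0.786 by median ratios (RLE). Lag3 itself was listed at 1, 0 and 0 rescaled counts in Lag3-deficient islets against 40, 48 and 120 in Wt islets, and at 1, 0 and 3 in Lag3-deficient NDL against 2, 5 and 6 in Wt NDL. The NDL values are near the lower limit of the table and overlap, so they do not tell the genotypes apart there. All 10 Treg markers were above 0 in all 12 libraries, with Foxp3 at 224 to 654 CPM, while the B cell factor Pax5 was at 0 throughout.

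The 9 genes covered a wide range of levels. Per kilobase of exon, mean levels over the 6 islet libraries ran from Zfp36l1 (246 CPM per kb) through Ier2 (97.5), Btg2 (85.4), Cd69 (64.6), Nr4a1 (26.0), Egr1 (24.9), Zfp36 (19.5) and Egr2 (11.6) to Ier3 (0.902). In that order only the ranges of Zfp36l1 and Ier2, and of Cd69 and Nr4a1, did not overlap between neighbours. Exon length here joins the exons of all annotated transcripts of a gene. They covered 6509 of the 8112 bases of Cd69 and all 3470 bases of Zfp36. Levels per kilobase, and the order of the genes, depend on that length. In the 6 NDL libraries Nr4a1 stood below Egr1, Zfp36 and Egr2, at 5.24 CPM per kb, with a range that overlapped that of Egr2. All 9 genes passed the filter on low values (10 rescaled counts or more, in 3 libraries or more), Ier3 only through 3 islet libraries.

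**Figure D1:**
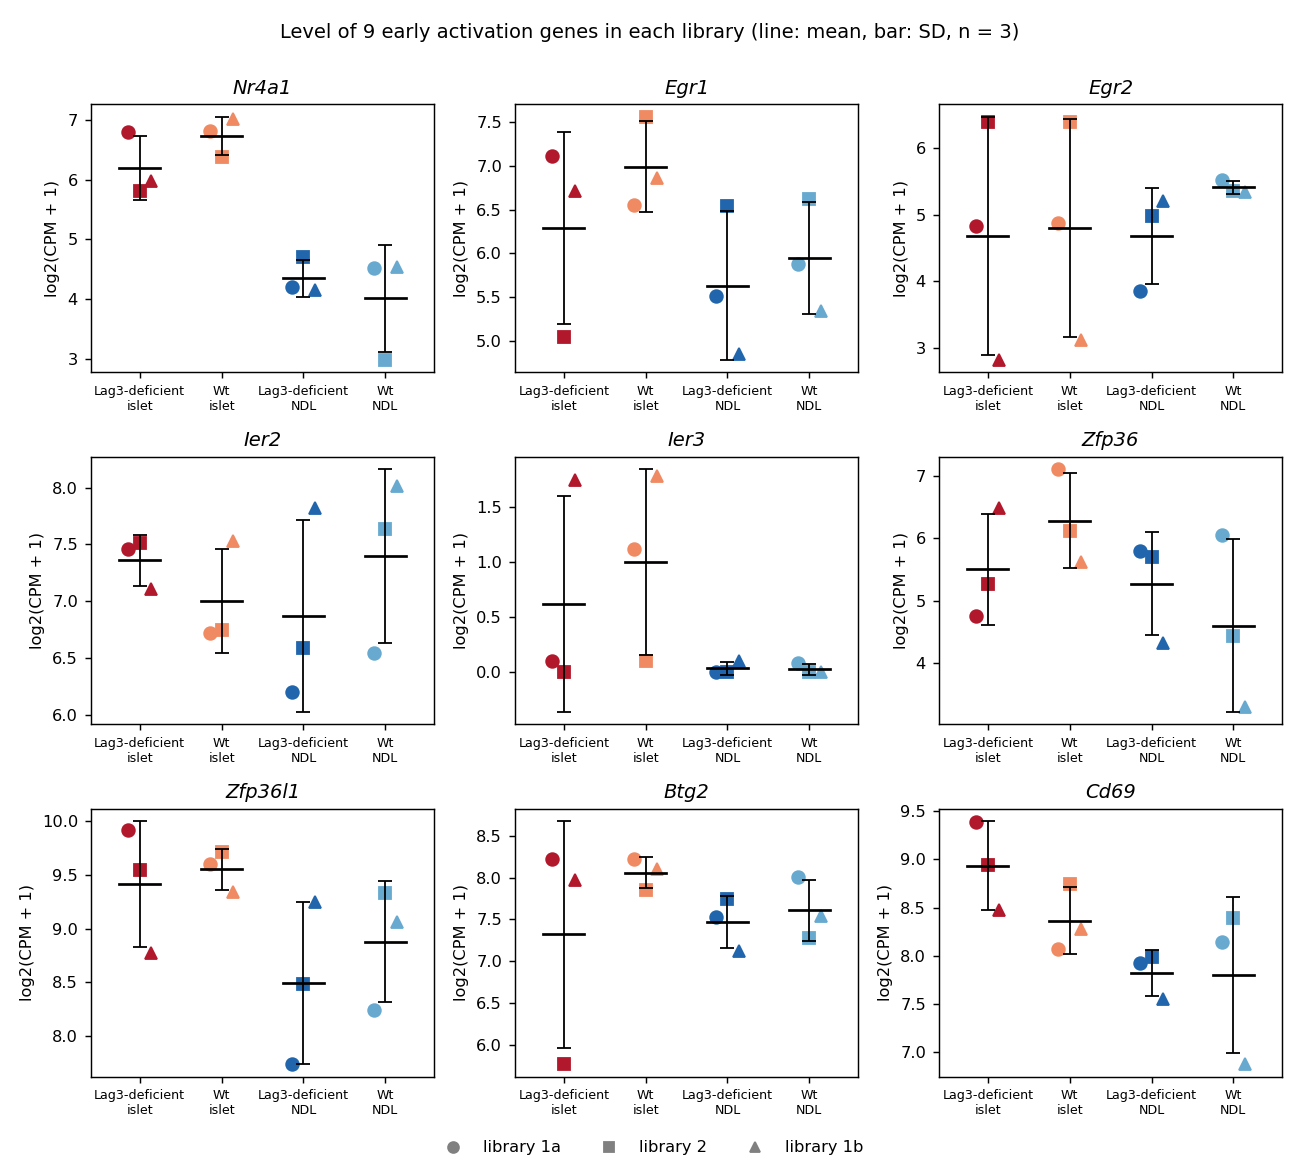
Level of each gene on the log2(CPM + 1) scale in each of the 12 libraries, with the mean and SD of each group (n = 3); symbols give the library number and each panel has its own scale. Nr4a1 separates islet from NDL libraries in both genotypes (54.8 to 128 CPM against 6.91 to 25.1), while Egr2 in islets runs from 6.04 to 83.4 CPM.

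The first comparison asks how the genes differ between Tregs of the islets and Tregs of lymph nodes that do not drain them. Nr4a1 was higher in islet Tregs and was the 1 gene of the 9 that passed the test. Its levels in libraries 1a, 2 and 1b, an order kept below, were 110, 54.8 and 61.7 CPM in Lag3-deficient islets and 111, 82.5 and 128 CPM in Wt islets, against 17.4, 25.1 and 16.7 CPM in Lag3-deficient NDL and 21.9, 6.91 and 22.3 CPM in Wt NDL. Every islet library was above every NDL library. Averaged over the genotypes, the log2 difference was 2.28 ± 0.53 (SE; 6 libraries against 6), a 4.85-fold difference on the log2(CPM + 1) scale, with a limma adjusted p of 0.043. Across all 10868 genes tested, 0.819% were called higher in islets in this comparison. Within genotypes the difference was 1.84 ± 0.75 in Lag3-deficient (adjusted p = 0.495) and 2.72 ± 0.75 in Wt Tregs (adjusted p = 0.217), without overlap in either. By genotype 0 of the 9 genes passed, against 0.12% of all genes higher in Lag3-deficient and 0.184% in Wt Tregs; at an unadjusted limma p under 0.05, 3 of the 9 (Nr4a1, Zfp36l1 and Cd69; 3.42% of all genes) and 1 of the 9 (Nr4a1; 5.01%) were higher. The call is close to the threshold: it was lost in 15 of 22 alternatives, among them voom weights (adjusted p = 0.0747) and leaving out the 1b columns (2.34, adjusted p = 0.138), and the adjusted p ranged over 0.0168 to 0.138. Of the 12 single libraries, leaving out Lag3-deficient islet 2 or Wt NDL 1b kept the call and leaving out any of the other 10 did not. An exact two-sided permutation of tissue within genotype gave p = 0.005, the smallest that its 400 arrangements allow.

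Egr1 and Egr2, zinc finger factors of which the second is tied to T cell anergy and restraint, did not pass. Egr1 measured 138, 31.9 and 104 CPM in Lag3-deficient and 92.8, 188 and 115 CPM in Wt islets, against 44.4, 91.9 and 27.8 CPM in Lag3-deficient and 58.0, 97.6 and 39.5 CPM in Wt NDL. The tissues overlapped in both genotypes, and Lag3-deficient islet library 2 was the lowest of the islet libraries (0.85 ± 0.48, adjusted p = 0.529, exact permutation p = 0.085). Egr2 measured 27.6, 83.4 and 6.04 CPM in Lag3-deficient and 28.4, 83.3 and 7.66 CPM in Wt islets, against 13.4, 30.5 and 35.8 CPM in Lag3-deficient and 45, 40.2 and 39.8 CPM in Wt NDL. In both genotypes the islet library numbered 2 was the highest and 1b the lowest, and the NDL values lay between them. The difference was -0.31 ± 0.73 (adjusted p = 0.919), with a 95% interval of -1.82 to 1.21, and it was 0.69 without the 1b columns.

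Ier2, a small nuclear protein of early growth responses, lay at 137 to 182 CPM in Lag3-deficient and 105 to 184 CPM in Wt islets, against 72.5 to 225 CPM in Lag3-deficient and 92.3 to 258 CPM in Wt NDL. These ranges overlap throughout, and the difference was 0.05 ± 0.38 (95% interval -0.75 to 0.85, adjusted p = 0.977). Ier3, a regulator of cell survival, was near the lower limit of the table: it was listed at 1, 0 and 34 rescaled counts in Lag3-deficient and 17, 1 and 36 in Wt islets, against 0, 0 and 1 in Lag3-deficient and 1, 0 and 0 in Wt NDL. Its higher values stood in 3 islet libraries, both 1b ones and Wt 1a. As Ier3 passed the filter through islets alone, its tissue difference is not read as a result.

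Zfp36, Zfp36l1 and Btg2 act on messenger RNA. Zfp36, which encodes tristetraprolin, measured 26.0, 37.3 and 88.5 CPM in Lag3-deficient and 137, 68.4 and 47.9 CPM in Wt islets, against 54.4, 51.2 and 18.9 CPM in Lag3-deficient and 65.5, 20.7 and 8.84 CPM in Wt NDL (0.96 ± 0.60, adjusted p = 0.579). Lag3-deficient islet and NDL libraries overlapped widely. Its relative Zfp36l1 had the highest mean CPM of the 9 genes in both tissues. In islets Zfp36l1 measured 968, 748 and 437 CPM in Lag3-deficient and 777, 836 and 648 CPM in Wt Tregs. In NDL it measured 213, 356 and 607 CPM in Lag3-deficient and 302, 641 and 533 CPM in Wt Tregs. The Wt libraries did not overlap, by a narrow margin, and those of Lag3-deficient Tregs did (0.80 ± 0.31, adjusted p = 0.295, exact permutation p = 0.03). Btg2, an antiproliferative partner of the CCR4-NOT deadenylase, measured 298, 53.3 and 251 CPM in Lag3-deficient and 297, 231 and 275 CPM in Wt islets, against 184, 213 and 139 CPM in Lag3-deficient and 256, 154 and 185 CPM in Wt NDL. The Lag3-deficient library 2 was the lowest of all, and the tissues overlapped in both genotypes (0.15 ± 0.39, adjusted p = 0.923, exact permutation p = 0.79). Without that library the difference was 0.51 (exact permutation p = 0.025, not adjusted), and without Lag3-deficient islet library 1a it was -0.07. The limma adjusted p of Btg2 was at least 0.521 whichever single library was left out. Zfp36 overlaps the antisense gene Gm44710 and Zfp36l1 the lincRNA Gm26669, and, as the sources used here do not give strandedness, reads from these pairs cannot be told apart.

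Cd69, the surface marker of recent activation and of residence in tissue, measured 670, 491 and 354 CPM in Lag3-deficient and 269, 428 and 309 CPM in Wt islets, against 243, 253 and 187 CPM in Lag3-deficient and 281, 334 and 116 CPM in Wt NDL. The Lag3-deficient libraries did not overlap between tissues and the Wt libraries did. The averaged difference was 0.84 ± 0.31 (adjusted p = 0.287, exact permutation p = 0.025). Its partner in egress control, S1pr1, named after its values were seen, measured 126 ± 48.8 CPM in Lag3-deficient and 164 ± 49.6 CPM in Wt islets, against 205 ± 51.5 and 312 ± 72.4 CPM in Lag3-deficient and Wt NDL (SD, n = 3; -0.85 ± 0.33, limma adjusted p = 0.312).

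Of the 8 genes other than Ier3, 7 had a positive averaged difference, with a median of 0.82. Of all genes tested 47.9% were positive, with a median of -0.04. Libraries of islet and NDL did not overlap for Nr4a1 and Zfp36l1 in Wt Tregs, where 8.37% of all genes were higher without overlap, and for Nr4a1 and Cd69 in Lag3-deficient Tregs, where 5.44% were. Ier3 is not counted, since a library of each tissue was listed at 1 rescaled count in Wt Tregs. Over both genotypes together Nr4a1 alone did not overlap, against 1.32% of all genes.

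**Figure D2:**
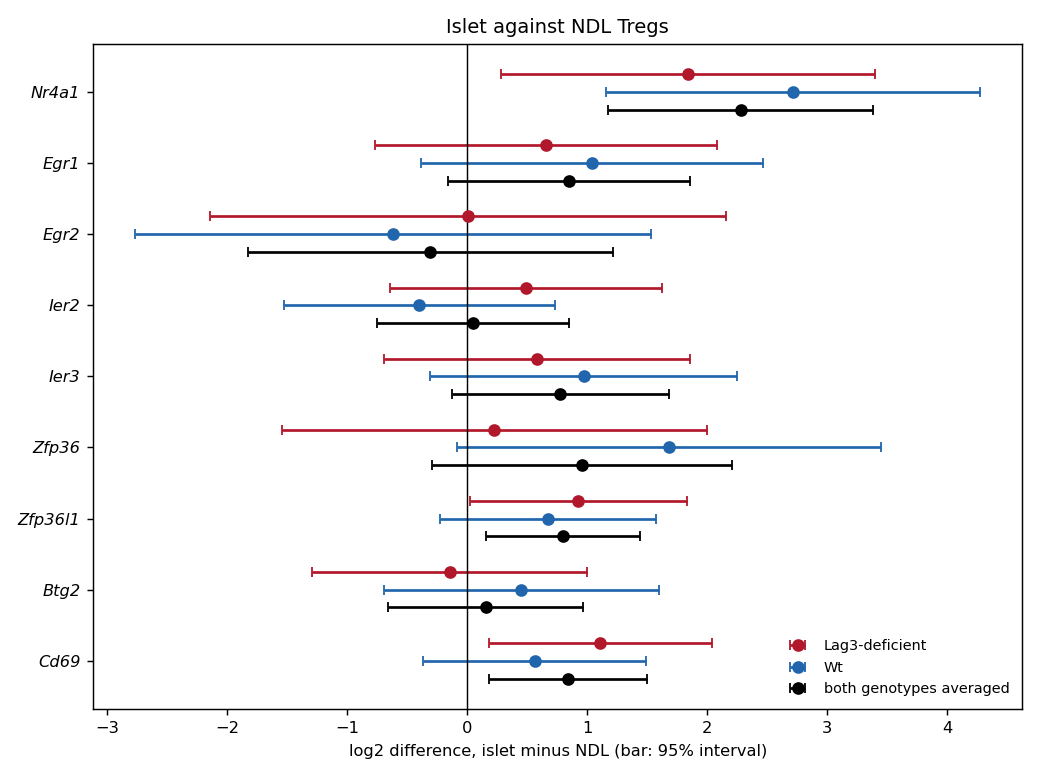
Log2 difference between islet and NDL Tregs for each gene in Lag3-deficient Tregs, in Wt Tregs and averaged, with 95% intervals. The averaged interval of Nr4a1 runs from 1.18 to 3.38, and that of Ier2 from -0.75 to 0.85; Ier3 passed the filter on low values through islets alone.

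Many early genes outside the 9 were called higher in islets. Of the 10 AP-1 and Dusp genes that reached 10 rescaled counts in 3 or more NDL libraries, 5 were called higher in islets and 0 lower (median 2.32), and of 23 such other early genes 9 were called higher and 0 lower (median 1.99). Another 2 and 3 genes passed the filter through islets alone, and 1 and 2 of them were called. Across all 10868 genes tested 0.819% were called higher in islets. Among the 10 AP-1 and Dusp genes 7 had a positive difference. Dusp2 (-0.48), Dusp6 (-1.67) and Dusp10 (-1.01) had a negative one and were not called. Among the 23 other early genes 20 were positive. Fos, the AP-1 subunit most often used as an early gene, measured 436 ± 73.9 CPM in Lag3-deficient and 395 ± 77.0 CPM in Wt islets, against 4.40 ± 1.64 and 2.49 ± 2.01 CPM in Lag3-deficient and Wt NDL (SD, n = 3; 6.70 ± 0.53, limma adjusted p = 3.27e-07). Jun (5.97 ± 0.82) and the phosphatase gene Dusp1 (3.86 ± 0.39) were called too, as were Rgs2 (4.09 ± 0.39), Ppp1r15a (4.58 ± 0.61) and Klf6 (2.64 ± 0.44).

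Relatives and partners of the 9 genes were also read. Nr4a2, named after its values were seen, measured 90.3 ± 64.8 CPM in Lag3-deficient and 39.6 ± 9.79 CPM in Wt islets, against 3.05 ± 3.99 and 0.0606 ± 0.105 CPM in Lag3-deficient and Wt NDL (SD, n = 3). It also passed the filter through islets alone, and no difference is given. Nr4a3 and Egr3 were too low to be tested, at up to 0.182 CPM in any library. Of 18 deadenylation genes that work with ZFP36 and BTG proteins 0 passed, and Zfp36l2 differed by 0.64 ± 0.25 (adjusted p = 0.325). None of 10 co-repressor and anergy genes passed either, with Nab1, a repressor of EGR proteins, at 1.22 ± 0.47 (adjusted p = 0.306). Of 20 kinase and serum response factor pathway genes 0 passed. Among 9 egress genes 0 passed, with Ccr7, a receptor for lymph node entry, at -1.10 ± 0.30 (adjusted p = 0.0986). Of all 10868 genes tested 100 were called in this comparison, with 0.819% of all genes higher in islets. The 0 calls in these short lists are near that share and are not read as a result.

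**Figure D3:**
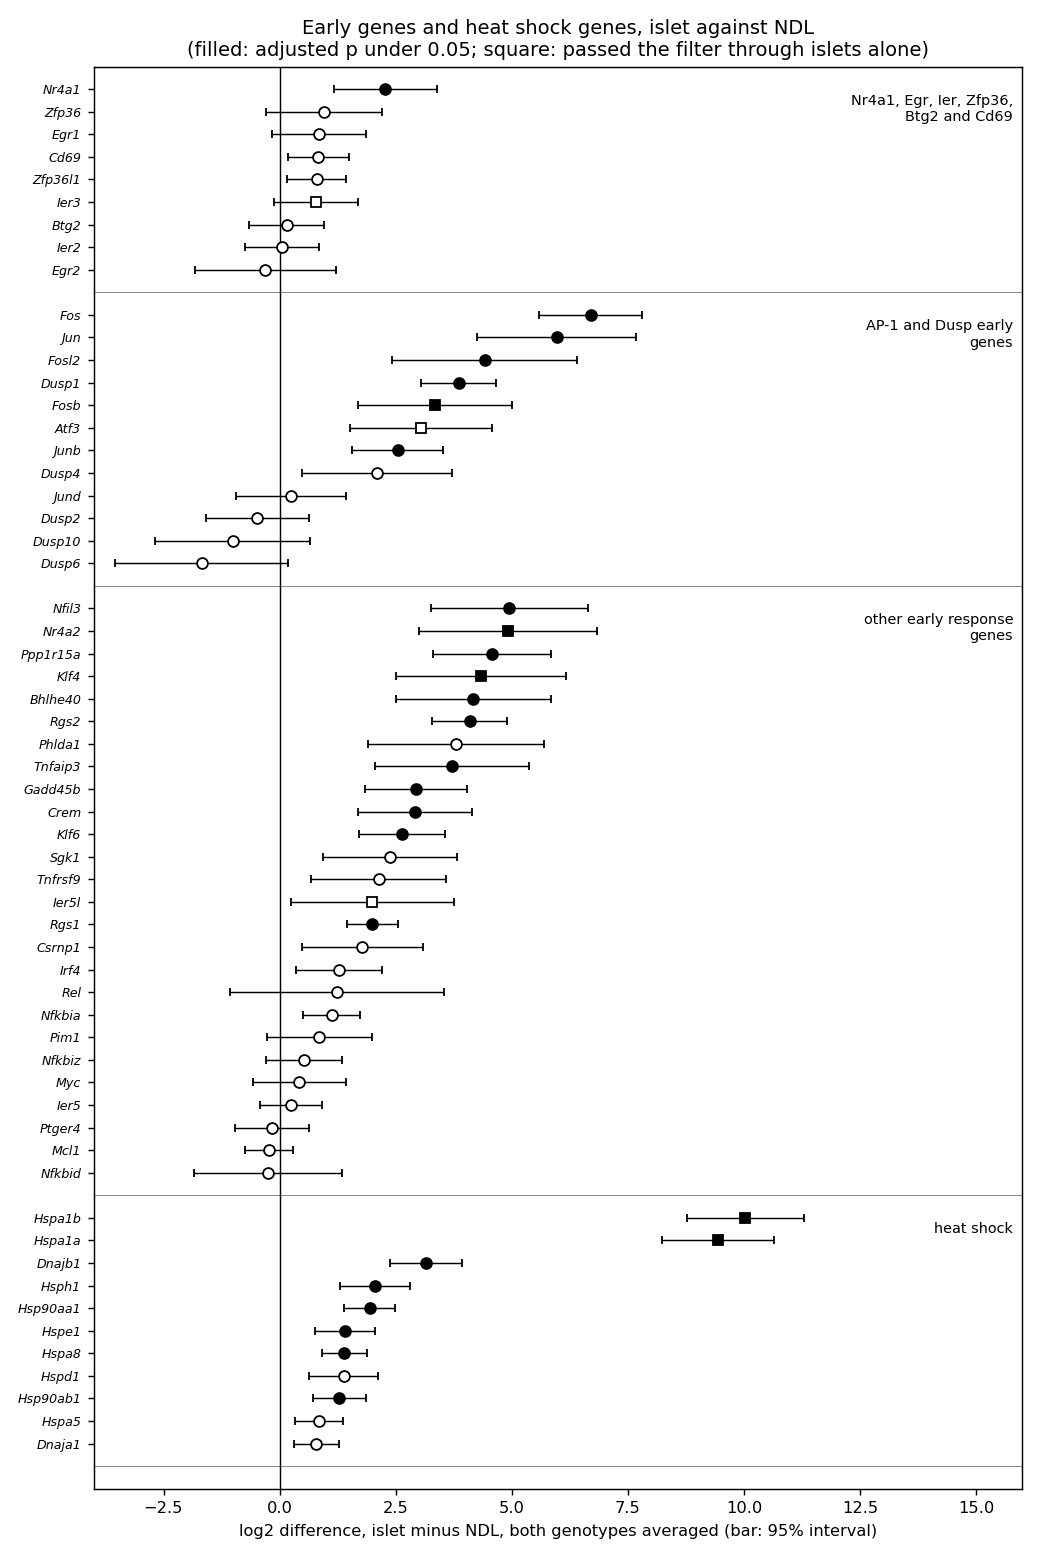
Averaged log2 difference between islet and NDL Tregs with 95% intervals for the 9 genes, for AP-1 and Dusp genes, for other early genes and for heat shock genes; filled points passed an adjusted p of 0.05, and squares mark genes that passed the filter on low values through islets alone. Nr4a1 at 2.28 is the filled point of the top group, below Fos at 6.70.

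Other RNA differed between the tissues alongside. Of 11 heat shock genes 8 were called higher in islets, of which Hspa1a and Hspa1b passed the filter through islets alone, and the summed level of the 11 was 18200 to 29800 CPM in Lag3-deficient and 20900 to 23500 CPM in Wt islets, against 5000 to 9220 and 6420 to 9290 CPM in Lag3-deficient and Wt NDL. Transcripts of 16 exocrine pancreas markers summed to 34.1 to 630 CPM in Lag3-deficient and 183 to 3330 CPM in Wt islets, against at most 1.14 and 4.91 CPM in Lag3-deficient and Wt NDL. The 10 B cell markers summed to 256 to 549 CPM in Lag3-deficient and 450 to 1140 CPM in Wt islets, against 118 to 231 and 59 to 166 CPM in Lag3-deficient and Wt NDL, and the 11 CD8 and NK markers to 143 to 555 CPM in Lag3-deficient and 299 to 467 CPM in Wt islets, against 102 to 115 and 19.6 to 54.3 CPM in Lag3-deficient and Wt NDL. Of the CD8 and NK sum, Nkg7 and Gzmb made up most, and none of the other 9 markers was above 16.4 CPM in any library. The 12 endocrine markers summed to 234 CPM in Wt islet library 1a, to 2.81 to 38.4 CPM in the other 5 islet libraries and to at most 0.848 CPM in NDL. Among myeloid markers, Cybb measured 36.9 to 136 CPM in Lag3-deficient and 69.5 to 147 CPM in Wt islets, against at most 3.93 and 0.121 CPM in Lag3-deficient and Wt NDL. The summed level of the 10 myeloid markers in the table, most of it Ctss, was 468 to 575 and 436 to 582 CPM in Lag3-deficient and Wt islets, against 364 to 638 and 432 to 608 CPM in Lag3-deficient and Wt NDL. The part of any of these in the difference of Nr4a1 was not tested. Tissue, cell handling and RNA from other cells cannot be told apart from these libraries, nor can fewer expressing cells be told from less RNA per cell.

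The second comparison asks whether loss of Lag3 changed these genes. Of the 9 genes 0 passed in islets and 0 in NDL, and over all 10868 genes 0% were called in either by limma; at an unadjusted p under 0.05, 0 of the 9 passed, against 5.74% of all genes in islets and 2.72% in NDL. Averaged over the tissues 0 of the 9 passed (0% of all genes), also unadjusted (3.68%). In islets Nr4a1 averaged 75.5 ± 30.1 CPM in Lag3-deficient and 107 ± 22.9 CPM in Wt Tregs, a log2 difference of -0.54 (95% interval -2.10 to 1.02). Cd69 averaged 505 ± 159 CPM in Lag3-deficient and 335 ± 82.9 CPM in Wt islets (0.57, -0.36 to 1.5), and Btg2 averaged 201 ± 130 CPM against 268 ± 33.9 CPM (-0.74, -1.89 to 0.41; SD, n = 3). Intervals this wide include changes of more than 2-fold in either direction for Nr4a1, so the data do not show that the genotypes are alike.

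In islets 7 of 9 differences were negative with a median of -0.38. Of all genes 39.6% were positive, with a median of -0.22. With RLE scaling the median of all genes was -0.03, and 4 of the 9 were positive instead of 2. The 2 that changed sign were Egr2 and Zfp36l1. In NDL, Egr2 was at 13.4 to 35.8 CPM in Lag3-deficient and 39.8 to 45 CPM in Wt Tregs without overlap (-0.74 ± 1.03, adjusted p = 1), against 3.63% of all genes lower without overlap. The test of whether the genotype effect differed between tissues passed for 0 of 9 genes (0% of all genes), and for 0 of 9 unadjusted (4.02%), with Zfp36 at -1.46 ± 1.20 and Ier2 at 0.89 ± 0.77.

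**Figure D4:**
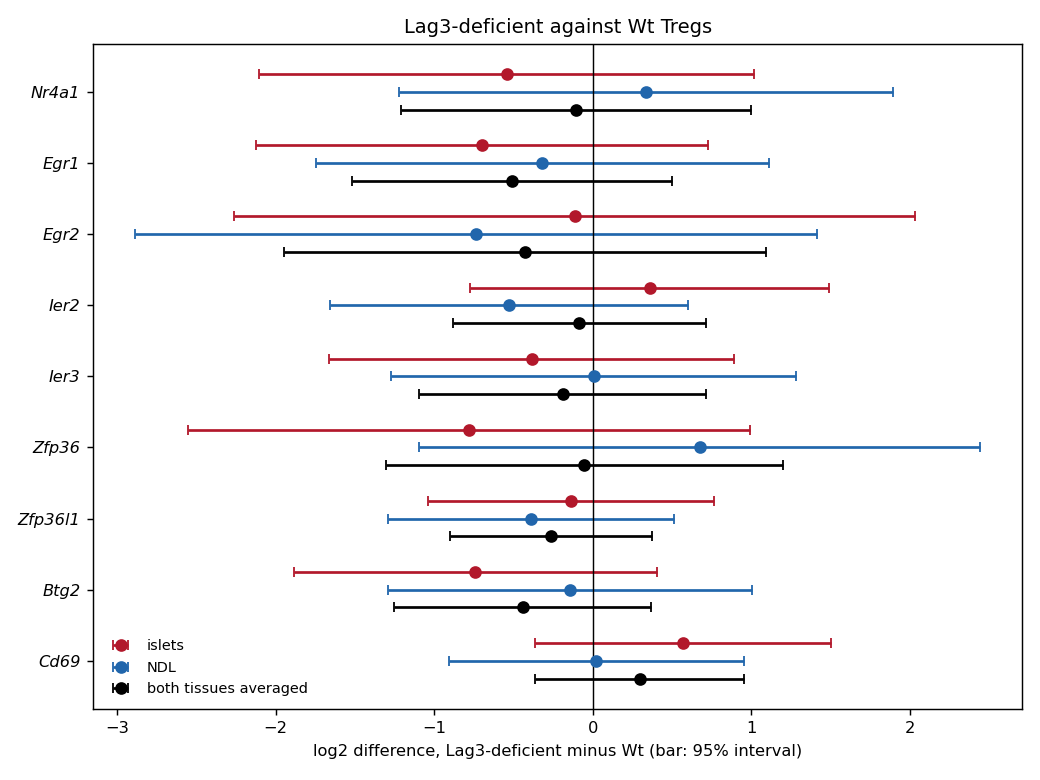
Log2 difference between Lag3-deficient and Wt Tregs for each gene in islets, in NDL and averaged, with 95% intervals. All intervals cross 0; that of Nr4a1 in islets runs from -2.10 to 1.02.

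Within groups the 9 genes differed in spread. The residual SD was 0.51 log2 units for Cd69, 0.56 for Zfp36l1, 0.57 for Nr4a1 and 1.27 for Egr2. Genes of like mean level, within 0.5 log2 units, had median SDs of 0.51, 0.45, 1.19 and 1.34 beside these, in the same order. After each group's mean was subtracted, the median Pearson r over the 36 gene pairs was -0.01 across the 12 libraries, and 18 pairs were positive. Egr2 and Ier3 (-0.90) and Ier2 and Zfp36 (-0.88) ran most against each other, and Ier2 with Zfp36l1 (0.73) and Egr1 with Btg2 (0.66) ran together. Ier3 was near the lower limit of the table and passed the filter through islets alone, so its pairs are not read as a result. These libraries share their scaling and their group, and the values are descriptions. Over 5604 genes with a mean log2 level of at least 4, those most like the mean of the 9 were Snrpd1 (r = 0.936), Hspa5 (0.936), Baz1a (0.922), Sla (0.921) and Hsp90aa1 (0.918). With group means subtracted they were Stx8 (0.943), Ankrd11 (0.929), Gimap3 (0.924), Chmp2a (0.914) and Fdx1l (0.902). The mean of the 9, which includes Ier3, then lay furthest out in Lag3-deficient islet libraries 1a (0.504, in units of SD) and 2 (-0.484). Each of the genes listed last was higher in that 1a library than in that library 2, as with Stx8 (245 and 28 CPM).

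**Figure D5:**
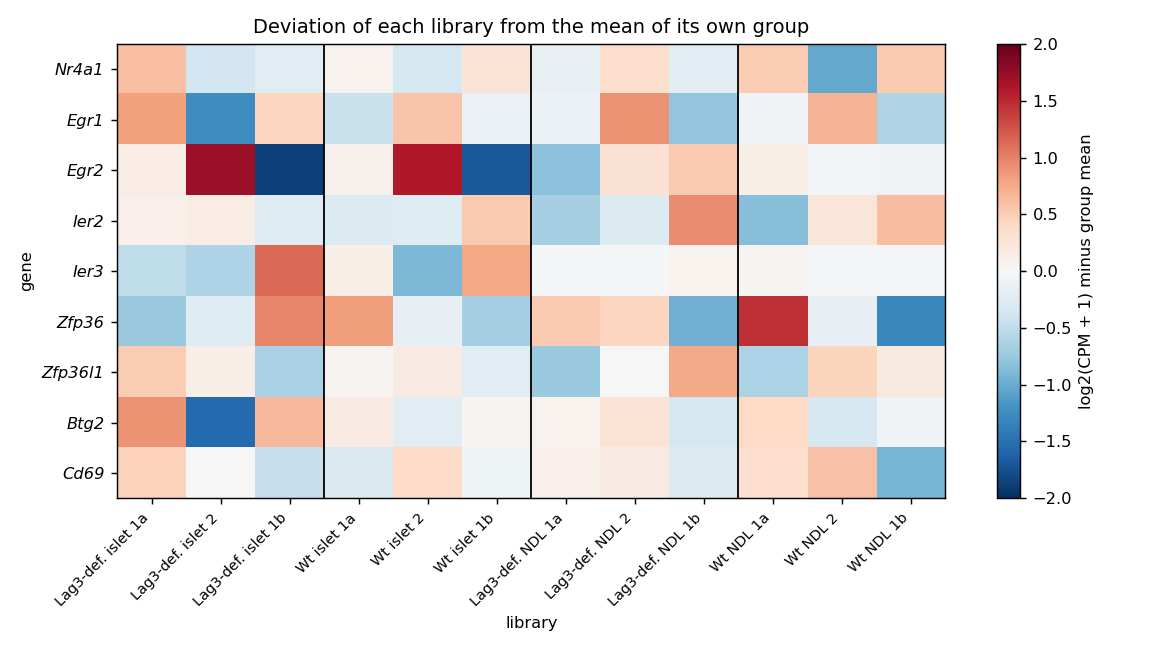
Deviation of each library from the mean of its own group, in log2(CPM + 1), for the 9 genes (rows) and 12 libraries (columns, groups separated by lines). Egr2 is above its group mean in library 2 and below it in library 1b of both islet groups; Btg2 and Egr1 are low in Lag3-deficient islet library 2 (53.3 and 31.9 CPM).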

How the data were processed

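RNA from 12 Treg libraries had been sequenced. The submitters' processing notes name TopHat2, DESeq2 and mm10 without versions or roles; the counting method is not given in the sources used here. The deposited values are a signal, rescaled counts in whole numbers whose column totals differ by 0.899%, so no count model was used and no counting intervals are given. A second deposited table, a normalized signal for 10317 genes, served as an alternative.

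Values were scaled by TMM (30% of ratios and 5% of levels trimmed), and log2(CPM + 1) was fitted with limma 3.58.1 in R 4.3.3, with a mean-variance trend, the 4 groups as terms and 8 residual degrees of freedom. Fold changes on this scale understate changes of low genes. The test took 10868 genes that reached 10 rescaled counts in 3 or more libraries, with Benjamini-Hochberg adjustment within each of 7 comparisons and a threshold of 0.05. Exact permutation tests moved tissue labels within genotype. The code was tested on simulated data. Positions come from GENCODE M21. Alternatives were 2 pseudocounts, RLE, plain totals, no filter, voom, the second table, the 1b columns as a term or left out, the 3 column sets as a block, and each library left out.

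The genes and lists were chosen with earlier results of these data known. Named genes are the 9, up to 6 called genes of each list or the 2 with the smallest p, and the 5 most alike by each measure. Exceptions are marked.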

Additional observations from a re-analysis of the deposited data

How the results depend on the processing

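Depth is unknown, 3 libraries a group give wide intervals, and the filter left Ier3 untested without some libraries. The headers repeat the number 1, so the labels' replicate numbers could not be tied to columns, and the column sets 1a, 2 and 1b served as a replicate block, chosen after seeing the data. Deviations from group means correlated by -0.0857 to 0.157 between libraries of a set (over 0.1 in 2 of 18 pairs), and 9 of 12 libraries correlated best with one of their own set. With this block the averaged tissue comparison called 0 of the 9 genes (Nr4a1 2.28, adjusted p = 0.0556), genes called in Wt numbered 11, and swapping tissue within genotype and set put 1 of the 9 genes, Nr4a1, under 0.05 (exact p = 0.0312, the smallest possible). Islet against NDL averaged over genotypes called 1 of the 9 genes, and 0 with plain column totals, with no filter on low values, with voom weights and without the 1b columns; leaving out single libraries gave 0 to 1. The exact permutation test was run on the 9 genes alone and its p-values are not adjusted, so no share of all genes stands beside its counts. It put 4 of the 9 genes under 0.05 (Nr4a1, Zfp36l1, Cd69 and Ier3, which is near the table's lower limit and is not read as a result). With RLE size factors, plain column totals or the second deposited table the count was 2, without the 1b columns 0 (the smallest p is then 0.0556), and without single libraries 1 to 5. All genes called numbered 100 in that comparison (40 to 151 over the alternatives), 20 in Wt (8 to 54), 13 in Lag3-deficient Tregs (7 to 32) and 0 between genotypes in islets (16 without Lag3-deficient islet library 1b). The other 6 comparisons called 0 of the 9 genes under every alternative run. Differences not called changed sign as follows; the cause was not tested. In brackets stands the comparison, genotype for Lag3-deficient minus Wt and tissue for islet minus NDL. A pseudocount of 0.25 gave Egr2 -0.0181 (tissue, Lag3-deficient). RLE size factors gave Egr2 0.126 (genotype, islets), Zfp36l1 0.10 (genotype, islets), Nr4a1 0.0163 (genotype, both tissues), Ier2 0.0358 (genotype, both tissues), Zfp36 0.0657 (genotype, both tissues), Btg2 0.00397 (tissue, Lag3-deficient). Plain column totals gave Zfp36 0.0308 (genotype, both tissues), Egr2 -0.0939 (tissue, Lag3-deficient), Ier2 -0.0649 (tissue, both genotypes). Voom weights gave Egr2 0.0315 (genotype, islets), Ier3 -0.0841 (genotype, NDL). The second deposited table gave Zfp36 0.0285 (genotype, both tissues), Egr2 -0.0224 (tissue, Lag3-deficient), Ier2 -0.0951 (tissue, both genotypes). Leaving out the 1b columns gave Egr2 0.115 (genotype, islets), Zfp36l1 0.215 (genotype, islets), Btg2 0.0374 (genotype, NDL), Cd69 -0.26 (genotype, NDL), Nr4a1 0.292 (genotype, both tissues), Ier2 0.119 (genotype, both tissues), Egr2 0.137 (tissue, Wt), Zfp36 -0.709 (tissue, Lag3-deficient), Egr2 0.689 (tissue, both genotypes), Btg2 -0.136 (tissue, both genotypes). Without single libraries the signs of these log2 differences also changed, over these ranges. For Lag3-deficient against Wt in islets: Egr2 -0.971 to 0.821, Zfp36l1 -0.39 to 0.184, Btg2 -1.19 to 0.0373. For Lag3-deficient against Wt in NDL: Nr4a1 -0.181 to 0.599, Egr1 -0.77 to 0.0735, Ier3 -0.029 to 0.0354, Zfp36l1 -0.769 to 0.0428, Btg2 -0.308 to 0.051, Cd69 -0.441 to 0.316. For Lag3-deficient against Wt over both tissues: Nr4a1 -0.362 to 0.0558, Egr2 -0.837 to 0.0428, Ier2 -0.321 to 0.149, Zfp36 -0.377 to 0.345. For islet against NDL in Wt: Egr2 -1.42 to 0.181. For islet against NDL in Lag3-deficient Tregs: Egr2 -0.902 to 0.941, Zfp36 -0.264 to 0.601, Btg2 -0.596 to 0.579. For islet against NDL over both genotypes: Egr2 -0.768 to 0.162, Ier2 -0.172 to 0.283, Btg2 -0.0717 to 0.506. For the interaction of genotype and tissue: Egr1 -0.797 to 0.206, Egr2 -0.268 to 1.56, Zfp36l1 -0.105 to 0.648, Btg2 -1.05 to 0.146.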
